A study of Mus musculus with 8 samples.

Results

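Mammalian cells build cholesterol and fatty acids from acetyl-CoA, and 36 genes of these pathways were followed here in mouse CD4 T cells labelled as wild type or as knockout for the transcriptional repressor Bcl6. The genes were listed by name: 17 enzymes of sterol synthesis, 5 genes that control the SREBP transcription factors, 3 genes of sterol transport and efflux, and 11 enzymes that make, elongate or desaturate fatty acids. Of the 36, 35 had a probe set that named the gene alone, and 33 were bright enough to be tested among 11926 tested genes of 19938 named. Acat2, a thiolase that starts the mevalonate pathway, had no such probe set and was not analysed here. Abca1, which exports cholesterol, and Scd1, a fatty acid desaturase, lay under the filter on dim genes. Probe sets passed that filter where the log2 signal was above the 40th percentile of the array's singly named probe sets (6.91 to 7.15) in at least 4 arrays. Where a gene had several probe sets, the brightest stood for it.

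RNA was measured on 8 Affymetrix whole-transcript arrays, 4 from wild-type mice (WT) and 4 from mice whose genotype is given as T cell-specific conditional Bcl6-/- (KO). Naive CD4 T cells of both genotypes were stimulated for 24 hours with IL6, IL21 and antibodies to CD3 and CD28, along with antibodies to IL-4, IFNg and TGFb. The cells are labelled follicular helper T (Tfh) cells. The driver of the deletion, the age of the mice and the number of mice behind each group are not given in the sources used here. Nothing says that replicates are separate animals or cultures, so p-values measure only the spread between these arrays, which may be technical. In bulk RNA, fewer cells of a kind and less RNA per cell cannot be told apart.

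Sterol synthesis runs from acetyl-CoA through mevalonate and squalene to lanosterol and cholesterol, and its enzymes are induced together by SREBP2, the product of Srebf2. SREBP1, from Srebf1, acts more on fatty acid synthesis. Both are escorted from the endoplasmic reticulum by Scap, held back by the Insig proteins when sterols are plentiful, and then cut to release the active factor. T cells raise this programme when they are activated, since dividing cells need new membrane, whereas the efflux pumps Abca1 and Abcg1 are induced by sterol-sensing LXR receptors.

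Bcl6 itself was 8.77 ± 0.123 (log2 signal, SD, n = 4) on the WT-labelled arrays and 9.15 ± 0.0497 (SD, n = 4) on the KO-labelled arrays, so the targeted transcript was higher, not lower, where it was labelled deleted (limma adjusted p = 0.0303). The groups did not overlap, but the call was lost with no filter (0.0595) and without WT replicate 3 or 4 or KO replicate 2, 3 or 4 (0.0589 to 0.109). Its 1 probe set may lie outside the deleted part and does not check the labels, so every direction here is that of the labels. KO replicate 1 stood apart: its median deviation from its group was 0.115 against 0.04 to 0.0725 on the other 3 KO-labelled arrays, and the array most like it was WT replicate 3. Of the CD4 T cell markers, 9 of 9 on the array were tested, with a list mean of 12.33 to 12.42 on WT-labelled and 12.41 to 12.45 on KO-labelled arrays. All 9 Tfh markers were tested, with a mean of 10.71 to 10.82 and 10.65 to 10.83 that hides differences of both signs. Of the 9, 7 had an unadjusted p under 0.05. Cd200 passed as higher (0.3375, limma adjusted p = 0.038). Il21 was higher (0.115, limma adjusted p = 0.268) and Pdcd1 lower (-0.215, limma adjusted p = 0.0931), both without overlap, but neither passed. Without KO replicate 1, Cd200, Sh2d1a and Btla passed as higher (limma adjusted p = 0.00407, 0.0172 and 0.022) and Tox2 as lower (0.0344). Of the 7 B cell and 10 myeloid markers on the array, 1 and 2 passed the filter. Of 7 NK cell markers only Nkg7 and Prf1 passed the filter, with a mean of 9.35 to 10.06 on WT-labelled and 8.83 to 9.22 on KO-labelled arrays. The 5 of 6 CD8 T cell markers that passed had a mean of 8.61 to 9.004 and 8.39 to 8.62. None of the NK or CD8 markers passed the test over 8 arrays. By unadjusted p under 0.05, 2 of the 2 tested NK and 3 of the 5 tested CD8 markers differed. Nkg7 (-0.8925), Prf1 (-0.4375), Crtam (-0.5425) and Ctsw (-0.52) were lower without overlap. Eomes (-0.3675), Cd8a (-0.0425) and Cd8b1 (0.03) overlapped. Without KO replicate 1 Crtam passed as lower (limma adjusted p = 0.0197). The part of these cells in the results below was not tested.

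Only Fdft1 passed the threshold among the 33 tested lipid genes, and it was higher on the KO-labelled arrays. The test was limma's moderated test with Benjamini-Hochberg adjustment over all 11926 genes and a threshold of 0.05. Over all tested genes 0.646% were called higher and 0.671% lower (1.32% in either direction, 77 and 80 genes), so 1 higher and 0 lower of 33 is near what the whole array gave. With each array centred on its median, the split over all genes was 48 higher and 30 lower. By unadjusted p under 0.05, 8 of the 33 members differed (24.2%), against 16.6% of all tested genes. The median difference of the 33 was 0.0075 on the log2 scale, against -0.0175 over all tested genes, and 18 of the 33 were positive. In 5 members the groups did not overlap, 15.2% of the 33, against 10.8% of all tested genes. Mvd, Fdft1, Elovl1 and Elovl5 were higher in this sense, 12.1% of the members against 3.1% of all tested genes, and Srebf1 was lower, 3.03% against 7.66%. Most of these 5 members were thus higher, whereas most genes without overlap on the whole array were lower. This difference in direction was not tested, and the counts without overlap were not redone with centring.

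**Figure D1:**
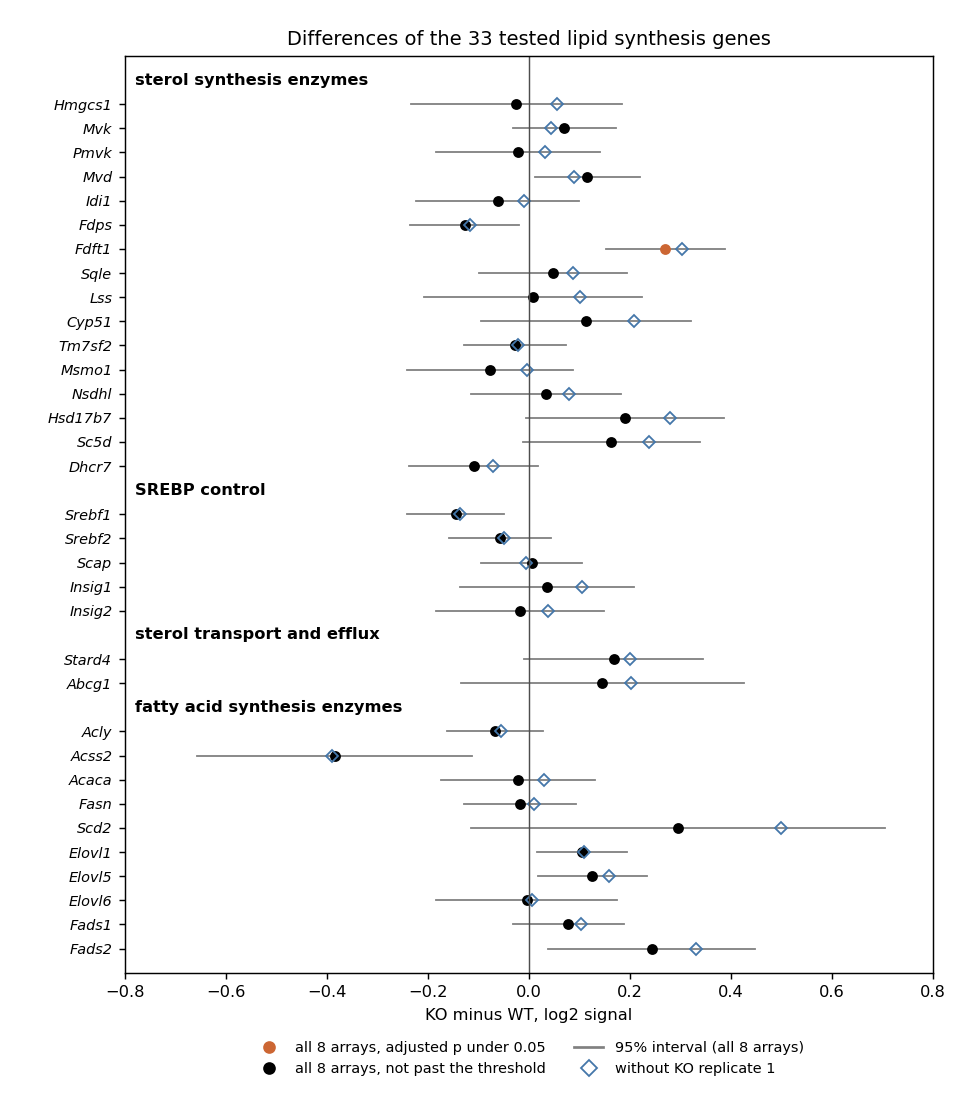
Difference in log2 signal, KO-labelled minus WT-labelled, for the 33 tested genes by role, with the 95% interval from limma over 8 arrays (filled circles, n = 4 each) and the difference without KO replicate 1 (open diamonds). Fdft1 alone is past the threshold at 0.27, Acss2 lies lowest at -0.385 and Scd2 highest at 0.295, and the intervals of most genes cross 0.

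Most members with a promoter sequence at hand shared a motif that the list did not use. RefSeq promoter windows (GRCm38.p6) of 300 bases, 250 before and 50 after each annotated start, were at hand for 28 of the 36 members. The other 8 had none: Fdft1, Sqle, Fdps, Scd1, Scd2, Fads1, Stard4 and Abcg1. Fdft1, the only member past the threshold, was therefore not searched for any motif. The NF-Y box, read as CCAAT on either strand and known as a partner site of SREBP, was found in 13 of 14 sterol enzymes (92.9%), 4 of 5 SREBP control genes and 5 of 8 fatty acid enzymes (62.5%). The 1 sterol transport gene with a window lacked it, so 22 of the 28 members held it (78.6%). It was found in 41.1% of all genes with a window and in 42% of the tested genes. Some genes had several windows. Counted by window, the box was in 13 of 17 of sterol enzymes (76.5%) and 5 of 10 of SREBP control genes (50%). For fatty acid enzymes it was in 5 of 9 windows (55.6%), against 37.4% of all windows and 37.1% of those of tested genes. A sterol regulatory element, read as TCACNCCAC on either strand, was found in Hmgcs1 alone, 1 of the 28 members (3.57%, against 1.44% of all genes). The E-box CACGTG, the same on both strands, was in 7 of 28 members (25%, against 8.09% of all genes and 11.9% of the tested genes). None of the 28 members held TTCCTAGAA or TTCNAAGAA, spellings of the site that Bcl6 binds, which 0.474% and 1.59% of all genes had in their windows. A match is a spelling in a window and not a measured binding site, and these windows do not cover distant or differently spelled sites.

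The 200 bases before the start follow for 6 members, 5′ to 3′ on the gene's strand. Hmgcs1 is shown for its sterol element, Hsd17b7 for its 3 NF-Y boxes beside an E-box, and Mvd, Srebf1, Elovl1 and Elovl5 because their groups did not overlap. Fdft1, whose groups did not overlap either, had no window to show. Capitals mark the motifs above, and ATTGG is the NF-Y box read on the other strand. The positions are chr13:119690151-119690350 (+ strand), chr8:122443423-122443622 (- strand), chr1:169969206-169969405 (- strand), chr11:60210472-60210671 (- strand, 1 of 3 windows of that gene), chr4:118427893-118428092 (+ strand, 1 of 2 windows) and chr9:77917165-77917364 (+ strand).
Hmgcs1: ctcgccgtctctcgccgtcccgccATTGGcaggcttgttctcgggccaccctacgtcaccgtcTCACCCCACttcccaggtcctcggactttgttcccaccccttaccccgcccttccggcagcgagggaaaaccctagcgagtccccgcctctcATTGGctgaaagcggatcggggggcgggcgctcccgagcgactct
Mvd: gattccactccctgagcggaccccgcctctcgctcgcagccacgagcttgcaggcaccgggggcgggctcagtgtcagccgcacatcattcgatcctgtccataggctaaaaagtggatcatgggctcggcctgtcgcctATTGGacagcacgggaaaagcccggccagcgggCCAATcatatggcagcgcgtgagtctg
Hsd17b7: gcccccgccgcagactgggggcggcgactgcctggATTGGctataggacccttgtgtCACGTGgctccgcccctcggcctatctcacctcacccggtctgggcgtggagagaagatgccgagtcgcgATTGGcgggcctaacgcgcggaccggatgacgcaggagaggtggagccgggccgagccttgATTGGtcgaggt
Srebf1: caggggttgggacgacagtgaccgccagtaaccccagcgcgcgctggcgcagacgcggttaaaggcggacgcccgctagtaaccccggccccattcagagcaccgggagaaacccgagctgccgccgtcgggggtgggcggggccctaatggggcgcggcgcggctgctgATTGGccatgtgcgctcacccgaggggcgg
Elovl1: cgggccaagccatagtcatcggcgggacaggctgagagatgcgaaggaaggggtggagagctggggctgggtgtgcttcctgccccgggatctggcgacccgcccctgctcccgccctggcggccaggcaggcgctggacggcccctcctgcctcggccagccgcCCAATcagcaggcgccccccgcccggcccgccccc
Elovl5: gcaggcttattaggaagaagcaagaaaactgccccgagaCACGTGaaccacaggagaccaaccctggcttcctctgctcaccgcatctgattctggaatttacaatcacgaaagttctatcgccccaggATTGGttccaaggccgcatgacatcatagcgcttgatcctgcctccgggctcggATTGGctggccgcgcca

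In the printed bases Hmgcs1 carries the sterol element between a pair of NF-Y boxes, out of 4 in its whole window. Its RNA overlapped between the groups. The Mvd and Elovl5 sequences hold 2 NF-Y boxes each, Hsd17b7 holds 3, and Elovl1 and Srebf1 hold 1, so members with differences of either sign share this spelling.

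Among the 16 tested sterol enzymes, Fdft1 was higher, none was lower, and 15 did not pass. Fdft1 encodes squalene synthase, the enzyme that commits farnesyl units to sterols. Its log2 signal was 11.81, 11.70, 11.71 and 11.65 on WT replicates 1 to 4 and 11.89, 12.01, 12.01 and 12.04 on KO replicates 1 to 4. Each KO-labelled array lay above each WT-labelled array, with KO replicate 1 the lowest of its group and close to WT replicate 1. The means were 11.72 ± 0.067 and 11.99 ± 0.0665 (SD, n = 4), a 1.21-fold rise or 0.27 ± 0.0532 on the log2 scale (SE, limma adjusted p = 0.0467). The exact permutation p was 0.0286, the floor for 4 arrays against 4. A second probe set of Fdft1 moved alike, from 11.58, 11.47, 11.49 and 11.34 to 11.68, 11.69, 11.81 and 11.85, a difference of 0.2875 (exact permutation p = 0.0286). The call sat at the threshold: its limma adjusted p was 0.00947 without KO replicate 1 but 0.0595 to 0.165 without each of the other 7 arrays, 0.0796 with centring on the array median, 0.103 with no filter on dim genes, 0.0517 with the mean over probe sets and 0.0523 with the filter's percentile taken over all probe sets. The difference itself was 0.25 to 0.30 in those fits.

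Upstream of Fdft1, the mevalonate enzymes showed small differences of both signs. Hmgcs1, HMG-CoA synthase, was 10.54, 10.69, 10.72 and 10.87 on the WT-labelled arrays and 10.44, 10.69, 10.75 and 10.84 on the KO-labelled arrays. The groups overlapped throughout, and the difference was -0.025 with a 95% interval of -0.23 to 0.18 (limma adjusted p = 0.939). Mvd, mevalonate diphosphate decarboxylase, was 8.96, 8.97, 8.95 and 8.95 against 9.15, 9.06, 8.99 and 9.09. The WT-labelled values were nearly equal and all 4 KO-labelled values were above them, but the difference of 0.115 ± 0.0465 (SE) did not pass (limma adjusted p = 0.249). Mevalonate kinase (Mvk) differed by 0.07 and phosphomevalonate kinase (Pmvk) by -0.0225, with overlap. Idi1, the isomerase of the isoprenoid building blocks, differed by -0.0625, and its second probe set by 0. Fdps, which makes the farnesyl diphosphate that Fdft1 uses, had the lowest difference of the list: 11.08, 11.12, 11.22 and 11.18 on WT-labelled against 10.99, 10.99, 11.08 and 11.03 on KO-labelled arrays. KO replicate 3 tied with WT replicate 1, and the difference of -0.1275 ± 0.0483 (SE) did not pass (limma adjusted p = 0.225). Fdps and Fdft1, neighbours in the pathway, thus had differences of opposite sign.

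Downstream of squalene, the differences ran from -0.11 to 0.19 and none passed over 8 arrays. Sqle, the squalene epoxidase and a rate-setting enzyme, was 10.66, 10.76, 10.80 and 10.67 on WT-labelled and 10.65, 10.69, 10.88 and 10.86 on KO-labelled arrays. KO replicates 3 and 4 were above every WT-labelled array and the others were not, and the difference was 0.0475 with a 95% interval of -0.098 to 0.19 (limma adjusted p = 0.803). Lanosterol synthase (Lss) differed by 0.0075, the lanosterol demethylase Cyp51 by 0.1125, the methylsterol oxidase Msmo1 by -0.0775 and the sterol dehydrogenase Nsdhl by 0.0325. The sterol reductases Tm7sf2 and Dhcr7 differed by -0.0275 and -0.11.

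Hsd17b7, a sterol ketoreductase, and Sc5d, a sterol desaturase, split the KO-labelled arrays. Hsd17b7 was 9.65, 9.77, 9.69 and 9.84 on WT-labelled and 9.66, 9.97, 10 and 10.08 on KO-labelled arrays. KO replicates 2 to 4 were above all 4 WT-labelled arrays and KO replicate 1 was level with the lowest of them. Sc5d was 10.72, 10.65, 10.56 and 10.73 against 10.60, 10.85, 10.95 and 10.91, with the same array out of place. Their differences of 0.19 ± 0.0879 and 0.1625 ± 0.0785 (SE) did not pass (limma adjusted p = 0.318 and 0.344). Without KO replicate 1 both passed, at 0.28 and 0.24 (limma adjusted p = 0.0207 and 0.0308).

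None of the 5 SREBP control genes passed. Srebf1, the gene of SREBP1, was 9.93, 9.91, 9.94 and 9.98 on WT-labelled and 9.77, 9.76, 9.85 and 9.80 on KO-labelled arrays. All 4 KO-labelled values were below all 4 WT-labelled values, KO replicate 1 among them, and the difference was -0.145 ± 0.043 (SE, p = 0.132 adjusted by limma and 0.0286 by the exact permutation test). Srebf2, the gene of the sterol-specific factor, differed by -0.0575 and overlapped (95% interval -0.16 to 0.044). The escort gene Scap differed by 0.005 with an interval of -0.096 to 0.11, the narrow range of a gene that was 11.25 to 11.36 on all 8 arrays. Insig1, a retention factor that is itself an SREBP target, was 10.78, 10.81, 10.86 and 11 against 10.69, 10.92, 10.99 and 10.99, and its relative Insig2 was 9.96, 9.90, 9.99 and 10.03 against 9.79, 9.87, 10.01 and 10.14. In both, KO replicate 1 was the lowest of all 8 arrays, and the differences of 0.035 and -0.0175 were within the spread of either group.

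Of the sterol transport genes, neither tested member passed. Stard4, a soluble sterol carrier, was 9.74, 9.71, 9.81 and 10.06 on WT-labelled and 9.90, 9.97, 10.04 and 10.08 on KO-labelled arrays. WT replicate 4 lay within the KO-labelled range and the other 3 WT-labelled arrays lay below it, and the difference was 0.1675 ± 0.0792 (SE, limma adjusted p = 0.332). The efflux pump gene Abcg1 was 8.79, 8.70, 8.77 and 9.28 against 8.86, 8.96, 9.2 and 9.1, with WT replicate 4 the highest of all 8 arrays (difference 0.145, limma adjusted p = 0.642). Abca1, under the filter, was 6.81 to 7 and 6.90 to 7.01, a difference of 0.06 (exact permutation p = 0.229).

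None of the 10 tested fatty acid enzymes passed, although this list held both the largest negative and the largest positive difference among the members. At the entry steps the differences were close to 0: Acly, which makes cytosolic acetyl-CoA from citrate, at -0.0675, Acaca, acetyl-CoA carboxylase, at -0.0225 and Fasn, fatty acid synthase, at -0.0175. Fasn was 11.94, 12.01, 11.98 and 12.06 on WT-labelled and 11.90, 11.96, 12.02 and 12.04 on KO-labelled arrays, which interleave, and its 95% interval was -0.13 to 0.093 (limma adjusted p = 0.921). Acaca was 10.72, 10.77, 10.73 and 10.93 against 10.61, 10.78, 10.82 and 10.85, and its second probe set differed by 0.

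Acss2, which makes acetyl-CoA from acetate, was 8.44, 8.77, 9.05 and 9.06 on WT-labelled and 8.46, 8.49, 8.37 and 8.46 on KO-labelled arrays. WT replicate 1 was as low as the KO-labelled arrays, while the other 3 were above all of them. The KO-labelled arrays had an SD of 0.052 and the WT-labelled arrays one of 0.293. The difference of -0.385 ± 0.122 (SE) did not pass (limma adjusted p = 0.152, exact permutation p = 0.114). Without WT replicate 1 it was -0.515 and passed (limma adjusted p = 0.0339), the only fall among the members in any fit with 1 array left out.

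Of the 6 tested desaturases and elongases, 5 had positive differences and none passed; the other, Elovl6, turned from -0.005 to 0.005 with centring and to 0.003 with another quantile normalization. Scd2, a stearoyl-CoA desaturase, was 10.40, 10.29, 10.46 and 10.68 on WT-labelled and 10.14, 10.77, 11.08 and 11.02 on KO-labelled arrays. KO replicate 1 was the lowest of the 8 arrays and the other 3 were the highest, so the difference of 0.295 had a 95% interval of -0.11 to 0.70 (limma adjusted p = 0.483). Fads2, which desaturates polyunsaturated fatty acids, was 8.56, 8.37, 8.57 and 8.66 against 8.52, 8.88, 8.89 and 8.84, again with KO replicate 1 among the WT-labelled values (difference 0.2425, limma adjusted p = 0.225). Without KO replicate 1 both passed, Scd2 at 0.50 and Fads2 at 0.33 (limma adjusted p = 0.0197 for each).

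Elovl5 and Elovl1, elongases of polyunsaturated and of very long chains, did not overlap between the groups. Elovl5 was 11.40, 11.43, 11.44 and 11.43 on WT-labelled and 11.45, 11.58, 11.55 and 11.62 on KO-labelled arrays, with KO replicate 1 only just above the WT-labelled range. Elovl1 was 12.04, 12.05, 12.09 and 12.05 against 12.15, 12.16, 12.19 and 12.15, and here KO replicate 1 did not stand out. The differences of 0.125 and 0.105 did not pass over 8 arrays (limma adjusted p = 0.232 and 0.227). Without KO replicate 1 Elovl5 passed (0.16, limma adjusted p = 0.0478) and Elovl1 did not (0.11, limma adjusted p = 0.115). Fads1, the partner desaturase of Fads2, differed by 0.0775 and Elovl6, which elongates palmitate, by -0.005, both with overlap. The value for Elovl6 rests on WT replicate 1, its lowest array at 10.42, without which the difference was -0.0942 (limma adjusted p = 0.387). Scd1 was 6.08 to 6.50 and 6.15 to 6.55, under the filter, and differed by 0.1525 (exact permutation p = 0.286).

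**Figure D2:**
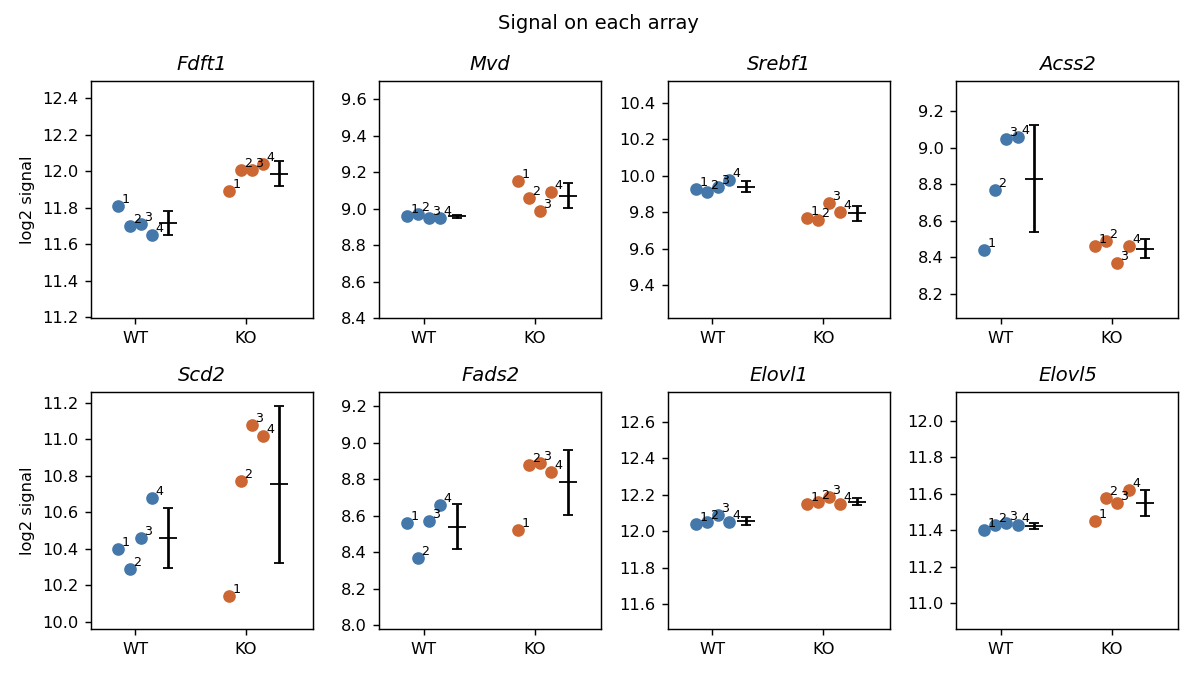
Log2 signal (y axis) of 8 members on each array, numbered by replicate, with the mean and SD of each group (n = 4) at the right of its points; every panel spans the same range of 1.3 log2 units around its own middle. Fdft1, Mvd, Srebf1, Elovl1 and Elovl5 do not overlap, WT replicate 1 of Acss2 (8.44) lies among the KO-labelled arrays, and KO replicate 1 of Scd2 (10.14) and Fads2 (8.52) lies below the other KO-labelled arrays.

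Sterol and fatty acid enzymes were set side by side. The median difference was 0.02 over the 16 sterol enzymes and 0.0363 over the 10 fatty acid enzymes, against -0.0175 over all tested genes, and 9 of 16 and 5 of 10 were positive. The lists differed in spread: sterol enzymes ran from -0.1275 to 0.27 and fatty acid enzymes from -0.385 to 0.295. With each gene centred on its WT mean, the mean over the sterol enzymes was -0.036, 0.007, 0.0039 and 0.025 on WT replicates 1 to 4 and -0.104, 0.039, 0.093 and 0.11 on KO replicates 1 to 4. The fatty acid enzymes gave -0.093, -0.039, 0.043 and 0.089 and then -0.10, 0.059, 0.086 and 0.096. In both lists KO replicate 1 was the lowest array and KO replicates 2 to 4 were above 0. The sterol mean minus the fatty acid mean was between -0.064 and 0.057 on the WT-labelled arrays and between -0.0196 and 0.0147 on the KO-labelled arrays, so the lists were not set apart beyond the spread of the WT-labelled arrays.

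**Figure D3:**
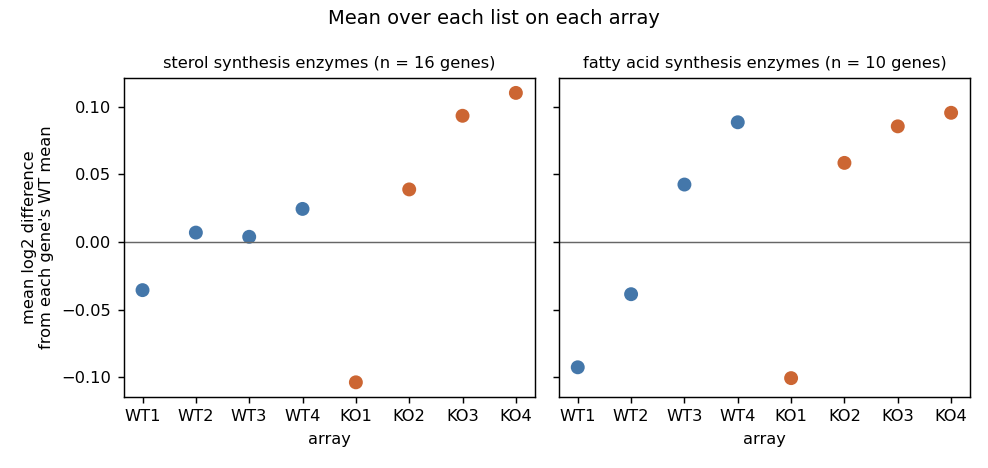
Mean log2 difference from each gene's WT mean over the 16 sterol (left) and 10 fatty acid (right) enzymes on each array. KO replicate 1 is lowest in both panels (-0.104 and -0.10), and KO replicate 4 is highest (0.11 and 0.096).

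Single arrays moved much of the list together. KO replicate 1 was the lowest of the 4 KO-labelled arrays in 25 of the 33 members (75.8%), against 53.8% of all tested genes. KO replicate 4 was lowest in 0 members, against 17.85% of all tested genes. Among the WT-labelled arrays, replicate 1 was lowest in 19 members (57.6%, against 26.3% of all genes) and replicate 4 highest in 17 (51.5%, against 30.9%). Without KO replicate 1, 6 of 33 members passed as higher and 0 as lower: Fdft1, Hsd17b7, Sc5d, Scd2, Elovl5 and Fads2. Over all genes that fit called 3.9% higher and 2.7% lower, 783 genes in all. Leaving out any of the other 7 arrays gave 0 members higher. The median difference without KO replicate 1 was 0.067 over the sterol and 0.066 over the fatty acid enzymes.

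**Figure D4:**
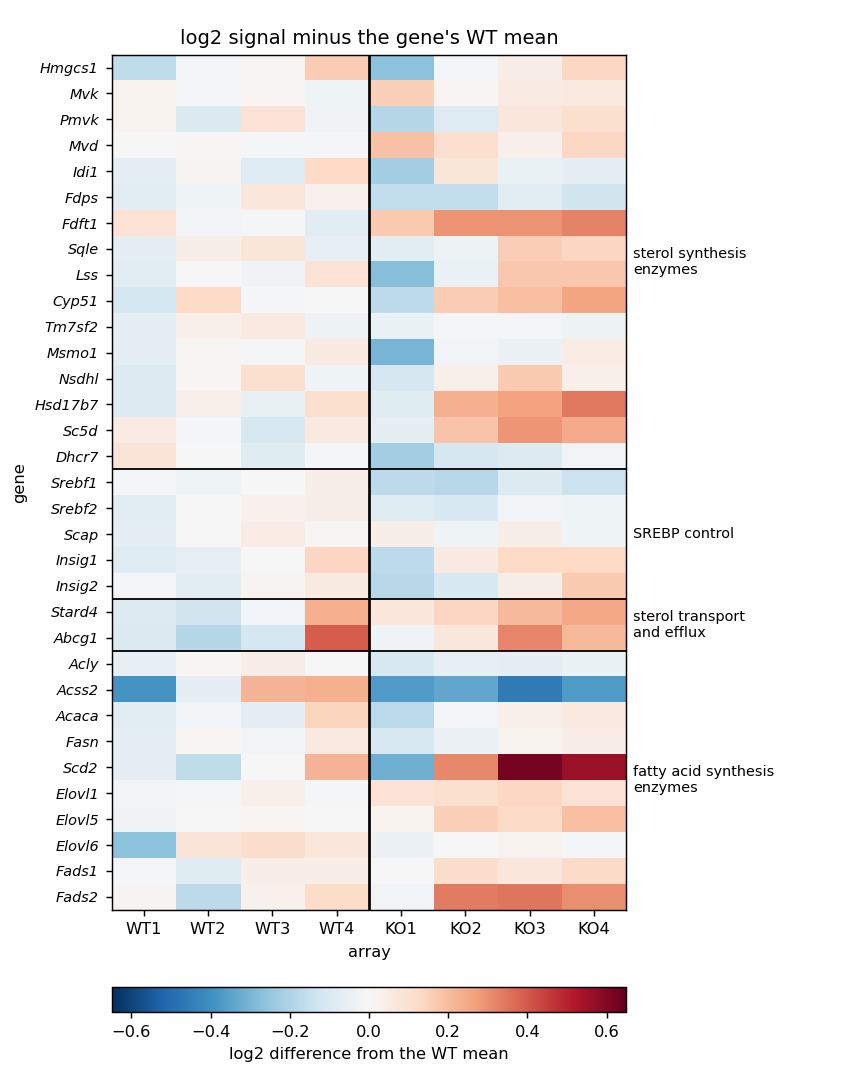
Log2 signal minus the gene's mean over the 4 WT-labelled arrays, for the 33 tested members (rows, by role) on the 8 arrays (columns), red above and blue below that mean. KO replicate 1 is blue in most rows, unlike KO replicates 2 to 4, and Scd2 reaches 0.62 on KO replicate 3 and Acss2 -0.46, and Fdft1 is red on all 4 KO-labelled arrays (0.17 to 0.32).

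Other genes of these pathways were counted from lists drawn up by pathway membership. Of 24 tested further genes of fatty acid and lipid assembly, 1 was higher and 0 lower, with a median difference of 0.0525. The call was Hacd2, the dehydratase that serves the elongation cycle together with the Elovl enzymes. It was 11.79, 11.78, 11.67 and 11.72 on WT-labelled and 11.98, 12.21, 12.11 and 12.29 on KO-labelled arrays, without overlap, a difference of 0.4075 ± 0.0683 (SE, limma adjusted p = 0.0279). Its dimmer probe set was higher by 0.215 (exact permutation p = 0.0286). Of the fits with 1 array left out, the call held without KO replicate 1 (limma adjusted p = 0.00263) and was lost without each of the others (0.053 to 0.109). The call was also lost with no filter (0.0534) and with the mean over probe sets (0.0517). Hacd2 lies on chromosome 16, as does the targeted gene Bcl6, and both were higher on the KO-labelled arrays. Hacd2 differed by 0.4075, or by 0.215 with its dimmer probe set, and Bcl6 by 0.3775. Chromosomes are those of the genes, and the position of each probe set was not checked. Slc25a1, of the same list and chromosome, differed by -0.03. The part of this shared position in the difference was not tested.

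Of 19 tested fatty acid oxidation genes, 0 were higher and 1 lower, with a median of 0. The call was Cpt1a, which admits long fatty acids to mitochondria: 9.91, 9.98, 10.02 and 10.02 on WT-labelled against 9.79, 9.75, 9.78 and 9.70 on KO-labelled arrays. All 4 KO-labelled values were below the WT-labelled ones and the difference was -0.2275 ± 0.0461 (SE), just past the threshold (limma adjusted p = 0.0495). It passed without KO replicate 1 (0.0185), and was lost without each of the others (0.0641 to 0.165). It was also lost with another quantile normalization (0.0827), centring (0.0976), no filter (0.119), the mean over probe sets (0.0515) and the percentile over all probe sets (0.0545).

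None of 15 tested genes of the isoprenoid branch and late sterol steps passed (median 0.01), nor did any of 18 tested SREBP and LXR control genes (median -0.0262). The smallest p in the former was that of Zmpste24, a protease that trims farnesylated proteins (0.2525 ± 0.0706, SE, limma adjusted p = 0.111), and in the latter that of Rxra, the partner receptor of LXR (0.345 ± 0.0716, SE, limma adjusted p = 0.0514). A dimmer probe set of Zmpste24 differed by 0.0525 (exact permutation p = 0.571), and with the mean over probe sets its difference was 0.1525. Rxra was 8.05, 8.09, 8.25 and 8.28 on WT-labelled and 8.63, 8.57, 8.41 and 8.44 on KO-labelled arrays, without overlap and with KO replicate 1 the highest. Both passed without KO replicate 1 (limma adjusted p = 0.0106 and 0.0307), and Rxra also passed with the filter at the 50th percentile (0.0389).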

How the data were processed

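The authors deposited log2 signals, 1 per probe set and array, for 35556 probe sets on 8 arrays, made with RMA and Partek per the submitters' processing notes; versions and a genome build are not given in the sources used here. RMA evens out the arrays' distributions, which hides any shift in a cell's whole RNA content, and levels of different probe sets are not comparable. Per the labels' protocols, 100 ng of RNA went into each biotin-labelled target.

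Groups came from the sample titles. The platform annotation supplied gene names: it gave 1 symbol for 21789, several for 1621 (not used) and none for 12146. The filter, the brightest-probe-set rule and limma 3.58.1 in R 4.3.3 (lmFit, eBayes, no block, two-sided) were used as the report describes. The fit was also run on simulated data with independent noise and planted differences larger than that of any member. No simulated array stood apart as KO replicate 1 did, so the run does not show how the fit does on differences of the size seen here. The filter's percentile was taken over singly named probe sets, which follows earlier work on this series; taking it over all probe sets, which tests 12573 genes, was added as an alternative after seeing the data, as was leaving out KO replicate 1 and WT replicate 3 together. Single values also had an exact two-sided permutation test. The number of arrays limits the precision.

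The members and lists were chosen with earlier results of these data known. Values on each array are given for members that passed, members whose groups did not overlap and the member of each role with the smallest p, and also for most rate-setting enzymes and regulators (Hmgcs1, Sqle, Acaca, Fasn, Srebf1, Insig1 and Insig2). Abcg1, Fdps, Hsd17b7, Sc5d, Scd2 and Fads2 were added to these after their values were seen. In the other lists, genes past the threshold were named, or else the gene with the smallest p. Promoter sequences are RefSeq's.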

Additional observations from a re-analysis of the deposited data

Results flagged for a closer look

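In 4 of 70 groups of 4 values, 1 array lay far from the other 3 by Dixon's criterion, which chance meets in about 1 of 20 groups. Abcg1 on WT replicate 4 was 9.28 (the others 8.70 to 8.79), and Scd1 on the same array was 6.50 (the others 6.08 to 6.14). Elovl6 on WT replicate 1 was 10.42 (the others 10.76 to 10.80). Fads2 on KO replicate 1 was 8.52 (the others 8.84 to 8.89).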

How the results depend on the processing

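The count of 1 member higher became 0 with centring on the array median, with no filter, with the mean over probe sets, with the percentile over all probe sets and at an adjusted p under 0.01. It became 8 with array weights, where 1010 of all 11926 genes were called higher, and KO replicate 1 had the lowest weight (0.176). Without KO1 and WT3 together it became 4, where 295 of all 11801 genes were called higher. It ran from 0 to 6 with 1 array left out, and the 6 came without KO replicate 1, where 463 of all 11866 genes were called higher. The count of 0 lower became 1 with array weights (Acss2), where 970 of all 11926 genes were called lower, and ran from 0 to 1 with 1 array left out.

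Over all genes, 157 calls became 322 with another quantile normalization, 78 with centring, 58 with no filter, 354 with a trend and robust prior, 1980 with array weights and 446 without KO1 and WT3 together, and 28 to 783 with 1 array left out. The sterol median, 0.02, was -0.0054, -0.0229 and -0.0037 without WT1, KO3 and KO4, and 0.075 without KO1 and WT3 together. The fatty acid median, 0.0363, stayed positive, with 0.0775 with no filter and 0.0192 to 0.0658 with 1 array left out. Sterol minus fatty acid ran from -0.0554 to 0.0012 with 1 array left out.

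Whether the replicate numbers pair the arrays is not given. For replicates 1 to 4, same-numbered deviations correlated at 0.0111, 0.145, -0.174 and 0.308. By these deviations WT2 and KO2 were each other's closest match across the groups, as were WT4 and KO4. Replicates 1 and 3 did not match by number. These few values cannot show whether the arrays were paired. With the replicate number as a block, 0 members were higher, 0 lower and 36 genes were called in all. Its limma adjusted p was 0.129 for Fdft1, 0.0906 for Hacd2, 0.125 for Cpt1a and 0.0606 for Bcl6.

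Some differences near 0 changed sign without passing. With array weights they were 0.049 (Hmgcs1), 0.056 (Pmvk), 0.045 (Insig2) and 0.034 (Acaca), and without KO1 and WT3 together 0.06, 0.063, 0.043 and 0.01. With 1 array left out, the ranges were -0.08 to 0.055 (Hmgcs1), -0.065 to 0.032 (Pmvk), -0.048 to 0.10 (Lss), -0.014 to 0.079 (Nsdhl), -0.08 to 0.037 (Insig2), -0.051 to 0.029 (Acaca), -0.038 to 0.0092 (Fasn) and -0.0942 to 0.0325 (Elovl6). The causes were not tested. Only 4 arrays a group limit the precision.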
